A study of Mus musculus with 2 samples.

Results

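The S100 calcium-binding proteins were represented by 10 genes, S100b, S100a1, S100a4, S100a6, S100a8, S100a9, S100a10, S100a11, S100a13 and S100a16, chosen as a gene family by name and found in both count matrices among 55401 genes. The study applied single-cell RNA sequencing (10x Chromium, 3' v3 chemistry) to brains of 10-week-old C57BL/6J mice. The metastasis library pooled 3 brains of mice that had received B16/F10-BrM cells, a melanoma line selected for growth in brain, by intracranial injection, and the naive library pooled 3 brains without tumour cells. In both, the dissociated cells had passed over anti-ACSA-2 beads, which retain astrocytes, and dead cells and myelin had been removed. With 1 library in each group, a difference between libraries has no replicate check, animals within a pool cannot be told apart, and no test was possible. Intervals (95%, exact) cover counting error only.

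S100 proteins are small and carry a pair of EF-hand motifs. Most change shape when they bind calcium and then attach to target proteins, among them annexins, myosin and p53, and several are released from cells and act on receptors such as Ager (the receptor for advanced glycation end products) and Tlr4. In brain, S100b is used as a marker of glia. S100a8 and S100a9 together form calprotectin, an abundant product of neutrophils and monocytes, and S100a10 pairs with the annexin Anxa2 at the cell membrane.

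After filters, 13100 metastasis and 13140 naive cells remained, with medians of 2823 and 2765 UMIs (unique molecular identifiers, counts of distinct captured transcripts) per cell and 67836482 and 48074286 UMIs in all. The kept cells of the libraries shared 48 barcodes. The submitters exchanged the titles of the library records after deposit, and the melanoma gene Pmel had 174742 UMIs in the metastasis library and 4774 in the naive library, as the present titles have it. Cells fell into 23 clusters formed without any S100 gene and named by markers. Despite the beads, astrocyte-like cells were 2.53% of metastasis and 7.79% of naive cells, against 40.7% and 42.1% for oligodendrocyte-like cells, and 11 classes had at least 50 cells in both libraries. Macrophage/monocyte-like cells (1314 and 28) and melanoma-like cells (694 and 18) were measured in the metastasis library only. Levels are in CPM, the usual scaling of the UMIs of a gene by the UMIs of all genes in the class. Barcodes with 100 to 300 UMIs gave the level of free RNA, and over the 240 combinations of member, class and library, 61 lay above it by the lower end of the interval, the rule used for every level called above free RNA.

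S100b lay on chromosome 10 (76253853 to 76261159, plus strand) and the other 9 members on chromosome 3, in GRCm38 coordinates of GENCODE M21. All 10 were protein coding. S100a1 (90511034 to 90514392, minus strand) and S100a13 (90514435 to 90524581, plus strand) were transcribed away from each other with 42 bases between them, followed by S100a16 (90537254 to 90543151), S100a4 (90603771 to 90606045), S100a6 (90612882 to 90624181) and S100a8 (90668978 to 90670035), all on the plus strand, and S100a9 (90692632 to 90695721, minus strand). S100a11 (93520488 to 93526287) and S100a10 (93555080 to 93564643) formed a separate pair on the plus strand with 28792 bases between them. Exons of S100a4 overlapped Gm42674 on the same strand, so S100a4 reads may be divided between the annotations. S100b overlapped Dip2a on the opposite strand, with no exon shared. RefSeq promoter windows (GRCm38.p6, 250 bases before to 50 after the start) matched 9 of the 10 members.

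The windows of S100a13 and S100a1 shared 204 bases. The S100a13 window is shown because both genes read outward from one stretch of DNA while their levels differed by cell class, with the shared bases in capitals, at chr3:90514185-90514484, plus strand.
S100a13: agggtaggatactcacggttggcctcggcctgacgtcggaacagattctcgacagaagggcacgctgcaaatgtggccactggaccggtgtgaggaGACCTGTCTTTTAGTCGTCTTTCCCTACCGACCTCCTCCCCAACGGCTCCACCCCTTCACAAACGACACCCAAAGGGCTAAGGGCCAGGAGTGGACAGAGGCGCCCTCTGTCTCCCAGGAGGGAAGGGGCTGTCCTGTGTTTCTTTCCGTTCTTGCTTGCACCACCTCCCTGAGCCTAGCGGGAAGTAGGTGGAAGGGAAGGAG
S100a13, which takes part in the release of the growth factor Fgf1, was highest in endothelial-like cells, with 466 CPM (442 to 492) in metastasis and 614 CPM (538 to 698) in naive cells, where its interval overlapped that of T and NK-like cells. S100a1, which adjusts calcium handling in heart muscle, had 56.3 CPM there in metastasis and 173 CPM in naive cells, under its free RNA of 373 and 449 CPM. S100a1 stood above free RNA in olfactory ensheathing-like cells alone, with 427 CPM (398 to 458) in metastasis and 543 CPM (516 to 572) in naive cells, where S100a13 had 178 and 188 CPM against 219 and 198 CPM in free RNA. In metastasis the next S100a1 levels, of fibroblast-like and astrocyte-like cells, had intervals that overlapped that of olfactory ensheathing-like cells or each other. In naive cells the first was apart from the rest. A level below free RNA does not show that a class made none. Choroid plexus epithelium-like cells had 287 CPM (270 to 306) of S100a1 in metastasis and 277 CPM (265 to 289) in naive cells. Their S100b, at 16.4 and 13.1 CPM against 645 and 834 CPM in free RNA, leaves room for little free RNA in them.

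S100b was carried by a subset of oligodendrocyte-like cells. Cluster 1, whose leading genes were Klk6 and Enpp6, had 2899 CPM (2861 to 2938) in metastasis and 2853 CPM (2808 to 2898) in naive cells. The other 3 oligodendrocyte-like clusters, led by Opalin, had 168, 137 and 119 CPM in metastasis and 141, 171 and 132 CPM in naive cells, all below free RNA (645 and 834 CPM). Summed over the class, S100b had 1379.6 CPM (1362 to 1397) in metastasis and 964 CPM (949.8 to 978) in naive cells, a log2 ratio of 0.52 (0.49 to 0.55). Cluster 1 made up 35.00% of the class in metastasis and 22.5% in naive cells, and within it the log2 ratio was 0.02 (-0.01 to 0.05). The library with the higher level in the class was also the one with the larger share of cluster 1.

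**Figure D1:**
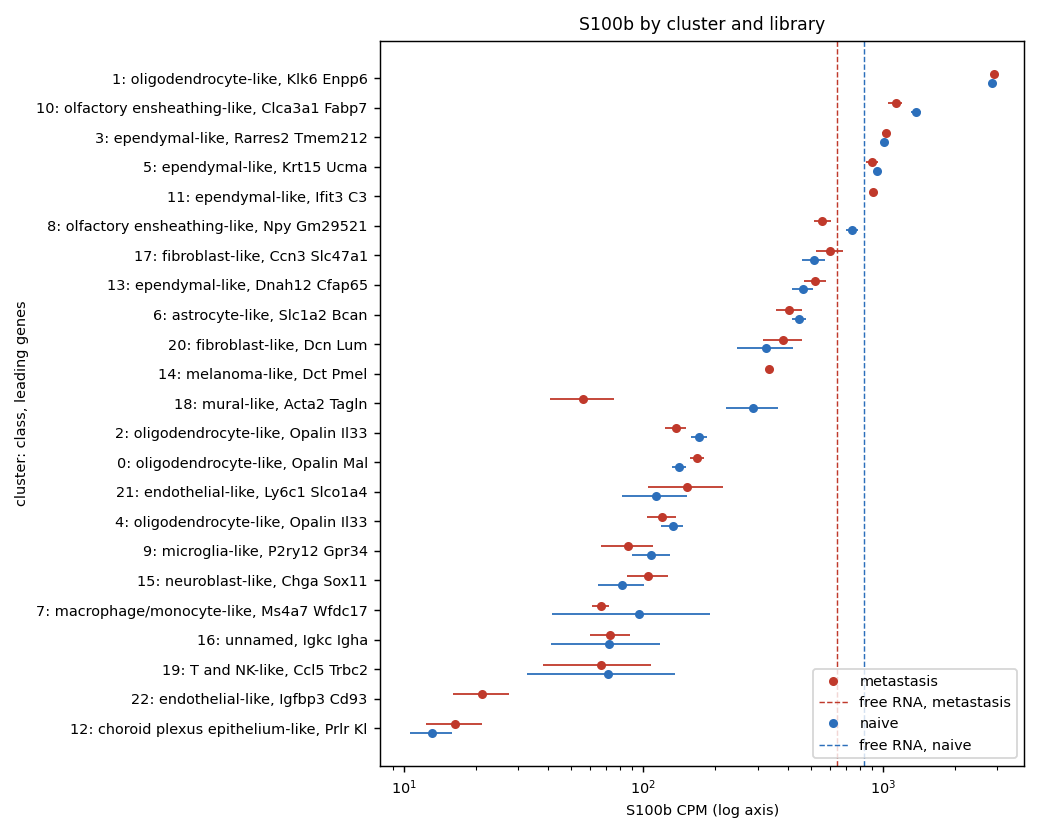
S100b level (CPM, log axis) in each cluster with at least 20 cells in a library, with 95% counting intervals, metastasis above naive in each row; dashed lines mark free RNA. Cluster 1 stands at 2899 and 2853 CPM, and the other oligodendrocyte-like clusters lie to the left of both dashed lines.

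Outside that cluster, S100b exceeded free RNA in ependymal-like cells, at 912 CPM (891 to 932) in metastasis and 951 CPM (934 to 968) in naive cells, and in olfactory ensheathing-like cells, at 792 CPM (752 to 833) and 1025 CPM (986 to 1064). These classes were not uniform. Of the olfactory ensheathing-like clusters, cluster 10 had 1128 and 1378 CPM. Cluster 8, led by Npy, had 559 and 742 CPM, under the 645 and 834 CPM of free RNA. The ependymal-like cluster 13 was also under it, at 521 and 462 CPM, while clusters 3 (1026 and 1008 CPM) and 5 (900 and 948 CPM) were over it. Astrocyte-like cells had 407 CPM (357 to 461) in metastasis and 448 CPM (419 to 478) in naive cells, below the free RNA of both libraries, although the astrocyte markers were present: the 14 markers summed to 23233 and 21966 CPM with none at 0. A level below free RNA does not show that a class made none, since free RNA is a part of its UMIs. That part was estimated from other classes' markers at fractions of 0.220 in metastasis and 0.229 in naive astrocyte-like cells. With it subtracted, 157 of 242 and 523 of 912 S100b UMIs remained. The naive fraction would bring in more S100a11 than the 19.6 CPM of naive astrocyte-like cells, since naive free RNA held 184 CPM, so too much may have been subtracted. After each cell was thinned to 1000 UMIs, 29.8% of metastasis and 32.03% of naive astrocyte-like cells had an S100b UMI (42.2% and 49.5% unthinned, medians of 1649 and 1791 UMIs). The share was 32.9% and 25.7% in oligodendrocyte-like cells (44.9% and 39.7% unthinned, medians of 2742.5 and 2969.5 UMIs) and 56.6% and 58.3% in ependymal-like cells. In choroid plexus epithelium-like cells it was 2.90% and 1.82% (13.04% and 11.5% unthinned, medians of 10746 and 12551 UMIs), the deepest of the compared classes, which is not known to make S100b. Melanoma-like cells, a type in which S100b is a clinical marker, had 335 CPM (327 to 342) in the metastasis library. That was below free RNA, which again does not show that they made none.

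S100a16, a broadly expressed member, was high in oligodendrocyte-like and olfactory ensheathing-like cells. It had 692 CPM (679 to 705) in metastasis and 719 CPM (707 to 732) in naive oligodendrocyte-like cells, and 522 CPM (489.5 to 556) and 599.9 CPM (571 to 630.2) in olfactory ensheathing-like cells, against 227 and 252 CPM in free RNA. Unlike S100b, it ranged over the oligodendrocyte-like clusters from 566 to 801 CPM in metastasis and from 619.7 to 923 CPM in naive cells, all above free RNA. Its lowest levels were those of melanoma-like cells, 16.1 CPM in metastasis, and of naive T and NK-like cells, 15.9 CPM from 2 UMIs.

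**Figure D2:**
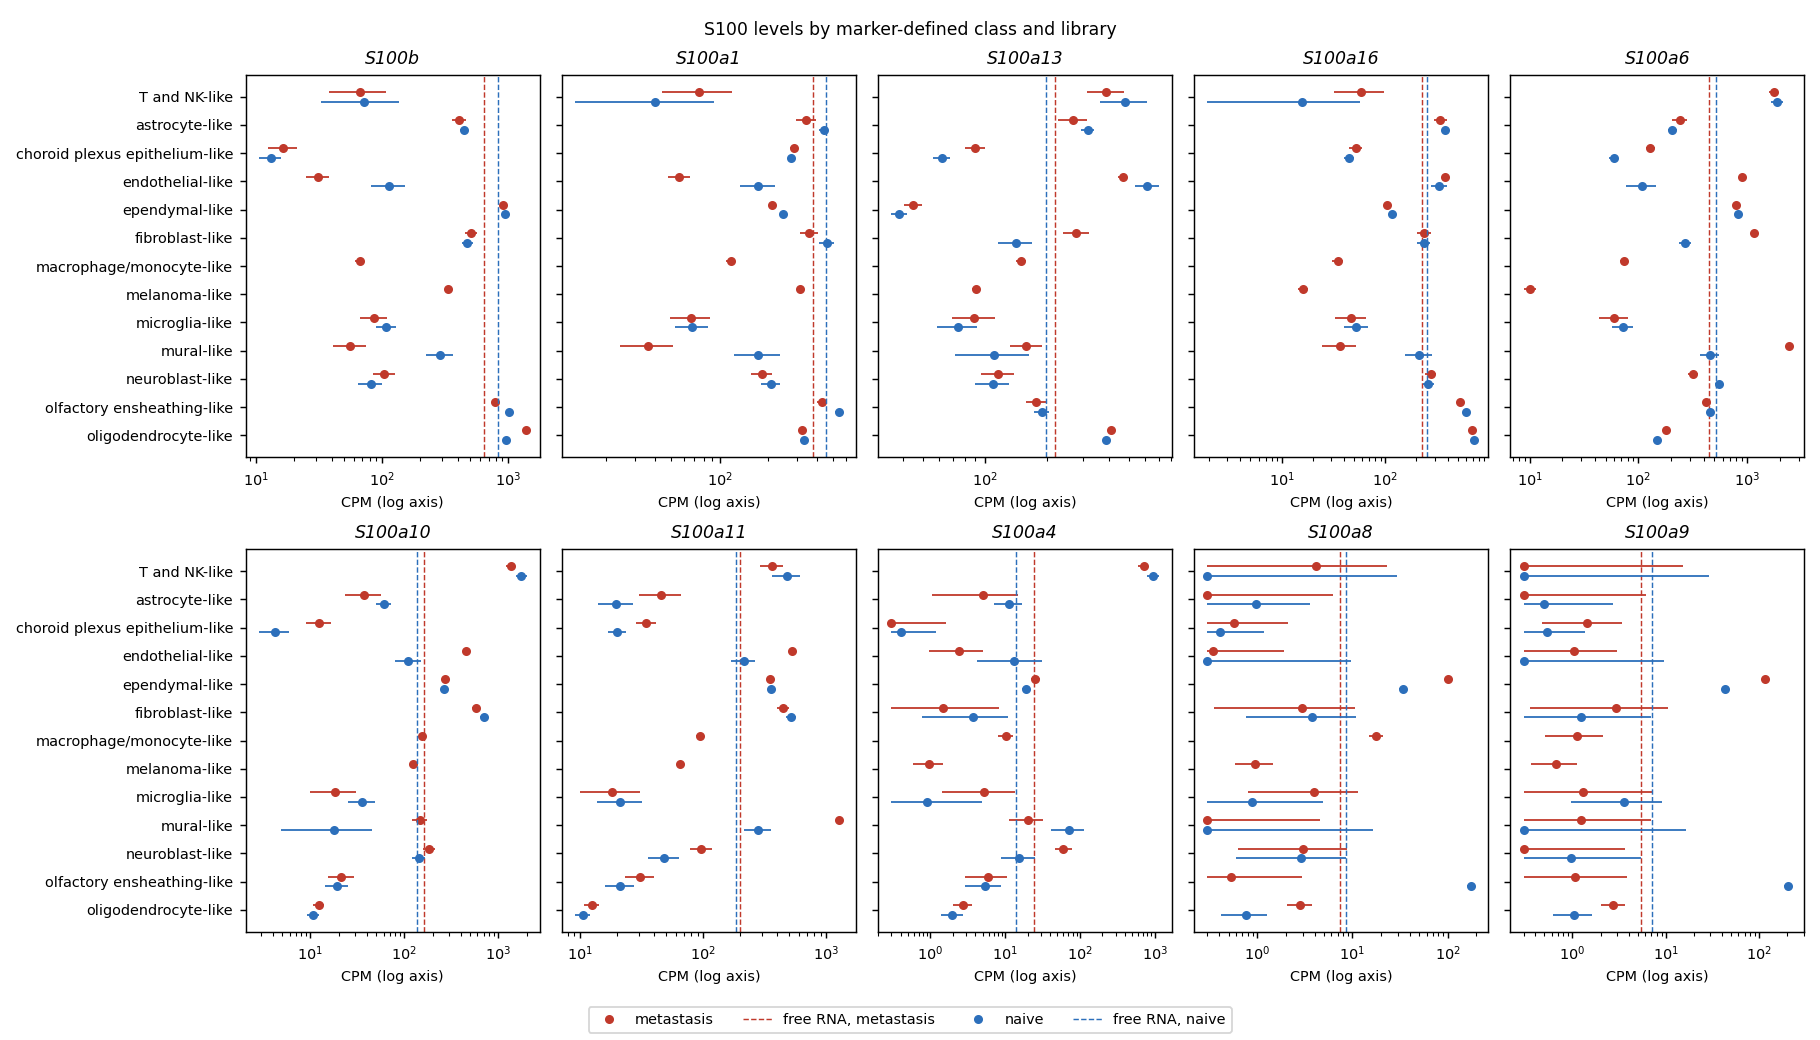
Level of each member (CPM, log axes of different range) in each class with at least 50 cells in the library, with 95% counting intervals, metastasis above naive; dashed lines mark free RNA, and a level of 0 or an interval that reaches 0 is drawn at the left end of the axis. S100a6, S100a10 and S100a11 stand apart between libraries in mural-like and endothelial-like rows, and the ependymal-like and naive olfactory ensheathing-like points of S100a8 and S100a9 each rest on 1 cell.

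The order of classes by level was told by counting intervals. S100a10 was highest in T and NK-like cells, then fibroblast-like cells, each apart from the next in both libraries, and S100a4 was highest in T and NK-like cells, apart from all other named classes. S100a6 was highest in mural-like, T and NK-like and fibroblast-like cells of the metastasis library, in that order and apart from each other, and in T and NK-like cells, then ependymal-like cells, of the naive library. S100b was highest in oligodendrocyte-like cells of the metastasis library, apart from ependymal-like cells, while in naive cells olfactory ensheathing-like cells came first and oligodendrocyte-like and ependymal-like cells were not apart.

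Between libraries, a member was compared in a class where both together held at least 20 UMIs and where the ratio was not a bound, which left 89 combinations of member and class. In 15 of them (16.9%) the level was at least 2-fold higher in metastasis, and in 9 (10.1%) at least 2-fold lower; over all genes with as many UMIs in the same classes, 6.25% were higher and 4.19% lower. The combinations were unevenly spread. Mural-like and endothelial-like cells held 6 of the higher and 6 of the lower ones among 15, and S100a8 and S100a9 held 4 higher and 2 lower among 6. The remaining 68 gave 5 higher (7.35%) and 1 lower (1.47%), beside 3.89% and 1.95% of all genes in the classes other than mural-like and endothelial-like. The members' median log2 ratio by class ran from -0.65 in mural-like cells, where the median of all genes was 0.14, to 0.54 in choroid plexus epithelium-like cells, where it was 0.11.

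**Figure D3:**
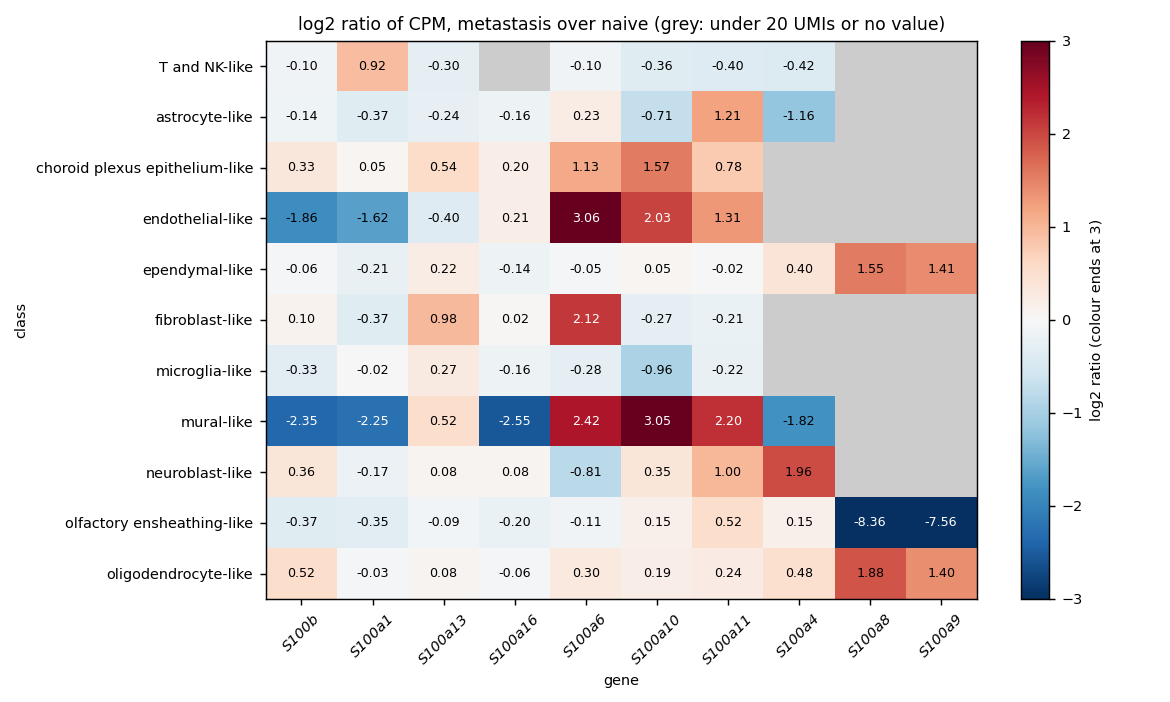
Log2 ratio of CPM, metastasis over naive, for each member (columns) in each compared class (rows); grey cells had under 20 UMIs or no ratio, and colour ends at 3 in either direction. In mural-like and endothelial-like rows S100a6, S100a10 and S100a11 are above 1 and S100b and S100a1 below -1, and the outermost values, -8.36 and -7.56, are those of S100a8 and S100a9 in olfactory ensheathing-like cells.

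S100a6 (calcyclin, a partner of Cacybp), S100a10 and S100a11 (a partner of Anxa1) were higher in vascular cells of the metastasis library. In mural-like cells (138 and 100), which wrap vessels, 3 of the 8 members measured were higher by 2-fold or more and 4 lower, beside 22.6% and 16% of all genes. S100a6 had 2428 CPM (2321 to 2538) in metastasis and 455 CPM (371 to 552) in naive cells, a log2 ratio of 2.42 (2.13 to 2.72). S100a11 had 1278 CPM (1200.5 to 1358) and 278 CPM (214 to 356), a log2 ratio of 2.20 (1.83 to 2.59), and S100a10 had 117 UMIs in metastasis and 4 in naive cells, a log2 ratio of 3.05 (1.65 to 4.95). S100a6 and S100a11 in metastasis mural-like cells were far above free RNA (451 and 198 CPM), while S100a10, at 146 CPM, was not above its 163 CPM.

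The lower members in mural-like cells were S100b at -2.35 (-2.93 to -1.78), S100a1 at -2.25 (-2.996 to -1.52), S100a16 at -2.55 (-3.27 to -1.85) and S100a4 at -1.82 (-2.92 to -0.73). S100b and S100a1 lay below free RNA in both libraries and S100a16 in metastasis, its naive interval reaching free RNA, and S100a4 had 16 UMIs in either library, in 13 metastasis cells and 2 naive cells. The naive mural-like cells had fewer UMIs (medians of 3909 UMIs in metastasis and 1536.5 in naive cells) and more oligodendrocyte RNA: the 12 oligodendrocyte markers summed to 2735 CPM in metastasis, against 13507 CPM in naive cells, and free RNA was estimated from other classes' markers at a fraction of 0.225 in metastasis and 0.895 in naive cells. With that fraction subtracted, naive S100a6 and S100a10 fell under the floor of 3 UMIs, so their log2 ratios were at least 4.57 and at least 0.16, and the ratio of S100a11 was 0.56, under 2-fold. S100b, S100a1 and S100a16 fell under the floor in both libraries and had no ratio. The 12 mural markers, however, summed to 19054 CPM in metastasis and 27845 CPM in naive cells, and the error of the estimated fraction was not measured. Naive S100a10 was 17.7 CPM (4.81 to 45.2), against 136 CPM in free RNA, less than a fraction of 0.895 would bring in. That fraction was thus too large for S100a10, and the subtracted values of this class cannot be taken as the size or limit of a difference.

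In endothelial-like cells (212 and 115), which line vessels, 3 of the 7 members measured were higher by 2-fold or more in metastasis and 2 lower, beside 17.5% and 17.2% of all genes. S100a6 had 898 CPM (864 to 933) in metastasis and 108 CPM (77.2 to 146) in naive cells, with a log2 ratio of 3.06 (2.62 to 3.54); S100a10 had 451 CPM (427 to 476) and 110.3 CPM (79.5 to 149), with 2.03 (1.59 to 2.51); and S100a11 had 526 CPM (500.1 to 553) and 213 CPM (169 to 264), with 1.31 (0.98 to 1.65). S100b and S100a1 were lower, at -1.86 (-2.40 to -1.30) and -1.62 (-2.04 to -1.19), and below free RNA in both libraries. With free RNA subtracted (fractions of 0.172 and 0.280) S100b fell under the floor in both libraries and had no ratio. S100b was 31.1 CPM in metastasis and 113 CPM in naive cells, against 645 and 834 CPM in free RNA. These fractions would bring in more than that, so they were too large for this gene. Different clusters made up this class. Cluster 22, led by Igfbp3 and Cd93, gave 73.6% of its metastasis cells and none of its naive cells, and cluster 21, led by Ly6c1 and Slco1a4, gave the rest. Cluster 22 had 968 CPM (931 to 1006) of S100a6, 481 CPM (455 to 508) of S100a10 and 557 CPM (529 to 586) of S100a11.

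Within cluster 21, the one endothelial-like cluster with cells of both libraries, none of S100a6, S100a10 and S100a11 was higher in metastasis, and neither S100b nor S100a1 was 2-fold lower, at 0.43 (-0.27 to 1.12) and -0.02 (-0.64 to 0.58). S100a6 had 36.96 CPM (15.96 to 72.8) in metastasis and 108 CPM (77.2 to 146) in naive cells (log2 ratio -1.54 (-2.85 to -0.43)), S100a10 had a log2 ratio of -0.49 (-1.40 to 0.35) and S100a11 one of -0.57 (-1.22 to 0.04). The endothelial marker sum was 9193 CPM in metastasis, against 22479 CPM in naive endothelial-like cells, with 0 of 12 markers and 1 of 12 at 0, and the melanoma marker sum was 464 CPM in metastasis and 21.0034 CPM in naive cells. Their part in the members' levels was not tested.

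Anxa1 and Anxa2, with which these members pair, were at least 2-fold higher in mural-like and endothelial-like cells of the metastasis library. In mural-like cells 3 of 5 measured annexin-type partners were at least 2-fold higher and none lower, beside the 22.6% and 16% of all genes, with a median log2 ratio of 1.77 against 0.14 for all genes. In endothelial-like cells 2 of 6 were higher and 1, Ahnak, lower, beside 17.5% and 17.2% of all genes. Within cluster 21 Anxa1 had 4 UMIs in metastasis and 5 in naive cells, too few to compare, Anxa2 had a log2 ratio of -0.16 (-0.66 to 0.33) and Ahnak one of 0.44 (0.12 to 0.76), both within 2-fold. Anxa1, the partner of S100a11, had 1218 CPM in metastasis, against 44.2 CPM in naive mural-like cells, a log2 ratio of 4.78 (3.90 to 5.85), and 314 and 13.1 CPM in endothelial-like cells, a log2 ratio of 4.58 (3.35 to 6.21). Anxa2, the partner of S100a10, had 637 CPM in metastasis, against 133 CPM in naive mural-like cells, a log2 ratio of 2.27 (1.73 to 2.85), and 937 and 278 CPM in endothelial-like cells, a log2 ratio of 1.75 (1.47 to 2.05). S100a10 and Anxa2 UMIs occurred in the same cell in 133 of 212 metastasis and 18 of 115 naive endothelial-like cells, and in 46 of 138 and 1 of 100 mural-like cells, unthinned. After thinning to 1000 UMIs the counts were 42 and 1 endothelial-like cells and 8 and 0 mural-like cells. No cell of the microglia-like class (cluster 9) had both in either library, and 4 of 327 metastasis cells of the microglia-like immune sub-cluster 4 did.

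Genes of plasminogen activation, a process to which the S100a10 complex is tied, did not move as one in endothelial-like cells. Of the 5 measured there, 1 was at least 2-fold higher and 1 lower, beside 17.5% and 17.2% of all genes. Plaur, the urokinase receptor, had 210 UMIs in metastasis and 2 in naive endothelial-like cells (log2 ratio 3.79 (1.92 to 6.84)), while Plat, the tissue plasminogen activator, was lower there at -1.71 (-2.06 to -1.35). In mural-like cells 3 of the 5 measured were at least 2-fold higher and none lower, beside 22.6% and 16% of all genes. Their median log2 ratio was 1.20, against 0.14 for all genes, and Plat was higher there at 1.20 (0.64 to 1.79). Among proposed S100 receptors in endothelial-like cells, Mcam had 226 CPM in metastasis, against 28.9 CPM in naive cells (log2 ratio 2.97 (2.12 to 3.98)), and Bsg had 1552 and 12854 CPM (log2 ratio -3.05 (-3.11 to -2.99)). The endothelial-like ratios given here were of the whole class, whose clusters differed between libraries. Of all 33 partners, 5 of 26 measured in endothelial-like cells were at least 2-fold higher and 4 lower, and 8 of 24 in mural-like cells were higher and 3 lower, against the shares of all genes given above. Ager, the classical S100 receptor, had 6 and 1 UMIs in endothelial-like cells and 8.92 CPM in metastasis, against 11.8 CPM in naive ependymal-like cells.

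Fibroblast-like cells, which take in cells of the brain's coverings, had 1 of the 7 measured members higher by 2-fold or more in metastasis and none lower, beside 5.47% and 2.45% of all genes. That member was S100a6, with 1167 CPM (1087 to 1251) in metastasis and 269 CPM (234 to 308) in naive cells, a log2 ratio of 2.12 (1.90 to 2.34). Clusters 20 (led by Dcn and Lum) and 17 (led by Ccn3 and Slc47a1) made up the class, the first with 42.1% of its metastasis and 25.1% of its naive cells. Within cluster 20 S100a6 had 2476 and 958 CPM, a log2 ratio of 1.37 (1.12 to 1.62), and within cluster 17 163 and 85.3 CPM, below free RNA, a log2 ratio of 0.93 (0.39 to 1.48). S100a10 and S100a11 were high in the class and within 2-fold between libraries, at 582 and 702 CPM for S100a10 and 447 and 517 CPM for S100a11. The estimated free RNA fractions were large, 0.512 in metastasis and 0.582 in naive cells. With free RNA subtracted, S100a10 and S100a11 stayed within 2-fold, with log2 ratios of -0.54 and -0.47. S100a13 passed 2-fold, at 2.48 against 0.98 before, and naive S100a6 and S100b fell to 0 UMIs. The error of these fractions was not measured. Metastasis S100a4 was 1.46 CPM (0.04 to 8.15), against 24.5 CPM in free RNA. Naive cluster 17 had its 85.3 CPM of S100a6 against 517 CPM in free RNA. Fractions of 0.512 and 0.582 would bring in more than these levels, so the subtracted values cannot be taken as the size of a difference.

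In ependymal-like cells, which line the ventricles, S100a6 separated clusters more than libraries. The class had 799 CPM (779.7 to 819) in metastasis and 826 CPM (810.1 to 841) in naive cells. Cluster 5, led by Krt15 and Ucma, had 1353 and 1463 CPM, and cluster 3 had 345 and 414 CPM, below free RNA. Cluster 11, led by Ifit3 and C3, held 896 metastasis and 8 naive cells and had 996 CPM (964 to 1028) of S100a6 in metastasis. S100a10 was 274 and 265 CPM and S100a11 348 and 353 CPM over the class, above free RNA and with counting intervals that overlapped between libraries.

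Choroid plexus epithelium-like cells, which secrete cerebrospinal fluid, had 2 of the 7 measured members higher by 2-fold or more and none lower, beside 3.97% and 1.07% of all genes. S100a6 had 129 CPM in metastasis, against 59.2 CPM in naive cells, a log2 ratio of 1.13 (0.94 to 1.32), and S100a10 had 43 and 31 UMIs, with the log2 ratio at 1.57 (0.87 to 2.28). Both were well under free RNA in both libraries, and the macrophage/monocyte markers summed to 394 CPM in metastasis, against 12.8 CPM in naive cells. With free RNA subtracted (fractions of 0.177 and 0.228), 171.9 S100a6 UMIs remained in metastasis and 0 in naive cells. The floor of 3 UMIs then put the log2 ratio at 6.85. S100a10 fell to 0 in both libraries and had no ratio. The error of these fractions was not measured, but they would bring in more S100b than the class held. S100b was 16.4 CPM in metastasis and 13.1 CPM in naive cells, against 645 and 834 CPM in free RNA. The fractions were thus too large for this gene, and 6.85 cannot be taken as a lower limit. In astrocyte-like cells 1 of 8 measured members was higher and 1 lower, beside 2.49% and 3.46% of all genes: S100a11 had 27 and 40 UMIs, with the log2 ratio at 1.21 (0.45 to 1.95), and S100a4 had 3 and 23 UMIs, with the log2 ratio at -1.16 (-3.54 to 0.56), an interval that includes 0. S100a11 was below free RNA in both libraries and S100a4 in metastasis, and the S100a4 difference turned its direction at a clustering resolution of 2 (2.15). In microglia-like cells none of 7 measured members was 2-fold higher or lower, beside 2.21% and 2.41% of all genes.

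S100a4, which binds non-muscle myosin and is known for its link to metastasis, was high in T and NK-like cells and in part of the unnamed cluster 16. Its promoter window and that of its neighbour S100a6, with 6836 bases between the genes, are shown because the levels of both were high in T and NK-like cells. The windows are chr3:90603520-90603819 for S100a4 and chr3:90612644-90612943 for S100a6, plus strand, with the motif TATAAA (searched on both strands) in capitals.
S100a4: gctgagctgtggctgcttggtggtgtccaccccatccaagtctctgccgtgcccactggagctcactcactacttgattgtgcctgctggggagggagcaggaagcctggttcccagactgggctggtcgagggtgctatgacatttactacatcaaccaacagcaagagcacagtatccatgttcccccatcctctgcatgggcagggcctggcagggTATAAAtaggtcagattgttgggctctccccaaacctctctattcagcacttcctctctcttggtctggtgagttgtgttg
S100a6: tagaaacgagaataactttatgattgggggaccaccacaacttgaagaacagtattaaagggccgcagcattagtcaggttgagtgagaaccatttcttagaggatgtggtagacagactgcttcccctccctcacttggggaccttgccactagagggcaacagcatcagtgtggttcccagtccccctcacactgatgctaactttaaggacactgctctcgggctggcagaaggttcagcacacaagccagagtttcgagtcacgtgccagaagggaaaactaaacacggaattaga
TATAAA began 31 bases before the S100a4 start and was not found in the S100a6 window; 13.6% of the 32851 windows of all genes held it. The letters TGANTCA (in 7.81% of windows) and TTCNNNGAA (in 8.30%) occurred in neither. TGANTCA began 136 and 38 bases before the start of S100a11.

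In T and NK-like cells (120 and 76), S100a4 had 708 CPM (605 to 823) in metastasis and 946 CPM (784 to 1132) in naive cells, far above free RNA (24.5 and 13.9 CPM). S100a6 had 1769.7 CPM (1605 to 1946) and 1892 CPM (1659 to 2148), S100a10 1362 CPM (1218 to 1517) and 1749 CPM (1525 to 1996), and S100a11 362 CPM (290.2 to 447) and 477 CPM (364 to 614). None of the 7 measured members differed 2-fold between libraries there, beside 9.91% of all genes higher and 3.87% lower, and the log2 ratios of S100a4 and S100a10 were -0.42 (-0.76 to -0.07) and -0.36 (-0.61 to -0.11). With cells thinned to 1000 UMIs, S100a4 was found in 22.5% of metastasis and 34.2% of naive T and NK-like cells (32.5% and 46.1% unthinned, medians of 1494 and 1424.5 UMIs), against 0.319% and 0.199% of oligodendrocyte-like cells (0.807% and 0.651% unthinned). In the split of immune cells described next, 9 of the 120 metastasis cells fell in the unnamed sub-cluster 8. They held 41 of the 170 S100a4 UMIs and 117 of the 425 S100a6 UMIs. The oligodendrocyte markers summed to 9036 CPM in metastasis, against 2194 CPM in naive T and NK-like cells.

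Splitting the immune clusters into 12 sub-clusters, a step added after the clusters had been seen, separated the myeloid cells. Sub-cluster 9, with Plac8, Il1b and Ccr2 among its leading genes, was named macrophage/monocyte-like by the same rule. It held 143 metastasis and 10 naive cells, all from the unnamed cluster 16 and none from the macrophage/monocyte-like class. Its marker medians were nearly equal for the macrophage/monocyte list (log2 1.24) and the dendritic list (log2 1.17). It had 1059 CPM (969.6 to 1155) of S100a4, 2245 CPM (2113 to 2383) of S100a6, 606 CPM (539 to 679.8) of S100a10 and 637 CPM (568 to 713) of S100a11 in metastasis. The other macrophage/monocyte-like sub-clusters, 3 (Ccl8, Cxcl9) and 5 (Pf4), had 28.2 and 5.30 CPM of S100a4. Their S100a6, at 116 and 74.9 CPM, was below free RNA. The macrophage/monocyte-like class as a whole had 10.1 CPM (8.04 to 12.6) of S100a4 in metastasis, below free RNA. That class was mixed. Of its 1314 metastasis cells, 291 (22.1%) fell in the microglia-like sub-cluster 4, with 0 S100a4 UMIs and 1 S100a8 UMI. Another 363 (27.6%) fell in the unnamed sub-cluster 2, with 2 S100a4 UMIs. Microglia-like cells had 4 S100a4 UMIs among 458 metastasis cells and 1 among 623 naive cells, and S100a6 at 59.97 and 72.7 CPM. S100a10 was 258 CPM in sub-cluster 5, 192 CPM in sub-cluster 3 and 21.7 CPM in the microglia-like sub-cluster 4 of the metastasis library, whose free RNA held 163 CPM.

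**Figure D4:**
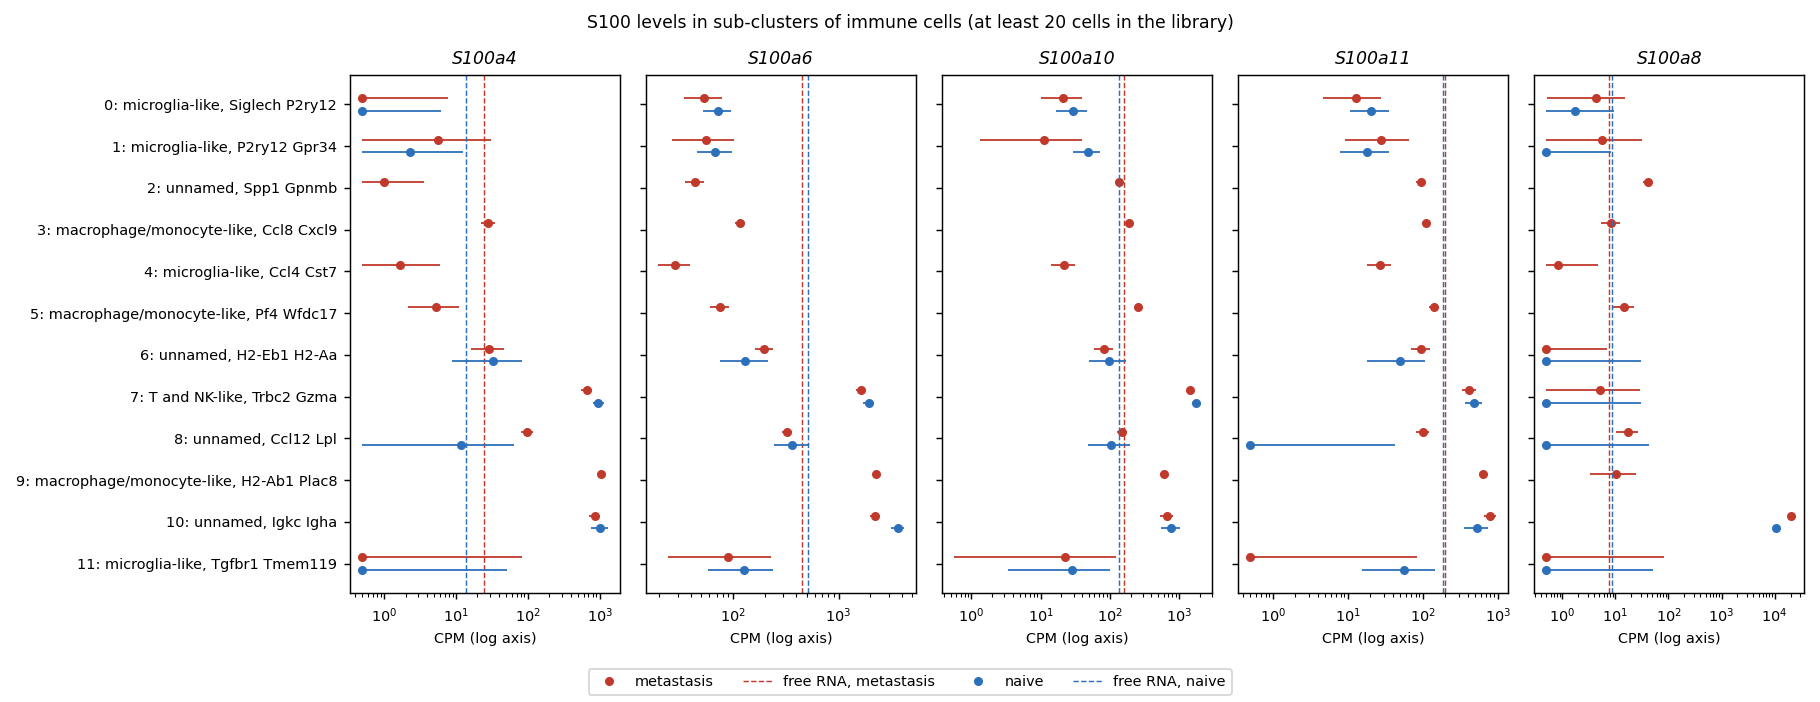
Levels of 5 members (CPM, log axes of different range) in sub-clusters of the immune cells with at least 20 cells in the library, with 95% counting intervals, metastasis above naive; dashed lines mark free RNA, and a level of 0 or an interval that reaches 0 is drawn at the left end of the axis. Sub-clusters 7, 9 and 10 stand right of free RNA for S100a4, S100a6, S100a10 and S100a11, and sub-cluster 2 does so for S100a8 alone.

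Sub-cluster 10 (59 and 21 cells, unnamed, led by Igkc and Igha) held cells that differed in their S100 genes. Its 4 metastasis and 2 naive cells with at least 3 of 12 neutrophil markers had 2778 and 579 S100a8 UMIs and no S100a4 UMI. They had 75 and 59 S100a6 UMIs, that is 5713 and 14589.5 CPM. The 20 metastasis and 12 naive cells of the sub-cluster with at least 3 B cell markers had no S100a8 UMI and 0 and 1 S100a4 UMIs. The remaining 35 and 7 cells had 121 S100a4 UMIs in metastasis (23 cells) and 55 in naive cells (6 cells), that is 1316 and 1908 CPM, and 147 and 18 S100a8 UMIs in 2 metastasis cells and 1 naive cell.

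In neuroblast-like cells S100a4 was the 1 of 8 measured members that was at least 2-fold higher in metastasis, beside 3.59% of all genes, with none lower, beside 2.93%. It had 60 UMIs in 15 of 285 metastasis cells and 16 UMIs in 15 of 357 naive cells, a log2 ratio of 1.96 (1.15 to 2.86), and 5 cells held 80% of the UMIs in metastasis and 37.5% in naive cells. The macrophage/monocyte markers summed to 235 and 18.4 CPM in these cells, with 3 of 14 and 8 of 14 at 0; their part in the S100a4 level was not tested. S100a6 was lower there at -0.81 (-1.01 to -0.61), short of 2-fold, with 318 CPM in metastasis, against 557 CPM in naive cells.

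Among kept cells, S100a8 and S100a9, the subunits of calprotectin, came almost wholly from a few cells. Their genes, with 22596 bases between them, both held TATAAA in the promoter window, and the windows are shown because both genes were found in the same cells. That of S100a8 is chr3:90668821-90669120, plus strand, and that of S100a9 is chr3:90695672-90695971, minus strand, with TATAAA in capitals.
S100a8: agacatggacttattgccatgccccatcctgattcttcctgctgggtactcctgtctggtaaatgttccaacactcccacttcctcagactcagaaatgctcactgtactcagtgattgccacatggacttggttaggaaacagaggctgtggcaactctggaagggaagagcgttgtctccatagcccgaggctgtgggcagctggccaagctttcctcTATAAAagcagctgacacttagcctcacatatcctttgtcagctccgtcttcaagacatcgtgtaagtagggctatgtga
S100a9: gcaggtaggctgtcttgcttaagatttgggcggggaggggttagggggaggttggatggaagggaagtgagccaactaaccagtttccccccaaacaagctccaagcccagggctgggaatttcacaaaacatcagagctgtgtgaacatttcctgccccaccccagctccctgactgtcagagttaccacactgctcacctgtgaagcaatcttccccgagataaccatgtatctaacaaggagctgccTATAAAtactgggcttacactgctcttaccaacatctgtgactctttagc
The motif began 30 bases before the S100a8 start and at the annotated first base of S100a9. Neither window held TGANTCA or TTCNNNGAA.

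Over all barcodes, S100a8 had 4153 UMIs in the metastasis library and 2406 in the naive library, and S100a9 had 4184 and 2558. Kept cells held 3972 S100a8 UMIs in metastasis and 1536 in naive cells, and 4039 and 1861 S100a9 UMIs. Cells with at least 3 neutrophil markers, 8 in metastasis and 5 in naive, held 91.1% and 96.2% of the S100a8 UMIs and 95.3% and 97.5% of the S100a9 UMIs. In metastasis, 6 of them had 30, 168, 691, 810, 888 and 1031 S100a8 UMIs with 30, 187, 758, 926, 988 and 959 of S100a9, and 2 had neither. In naive, 4 of them had 195, 384, 436 and 462 S100a8 UMIs with 276, 460, 551 and 528 of S100a9, and 1 had neither. Of the cells with at least 10 UMIs of both genes together, 1 metastasis cell (146 S100a8 and 123 S100a9 UMIs) had none of the 12 neutrophil markers, 1 metastasis macrophage/monocyte-like cell had 13 S100a8 UMIs and 1 naive unnamed cell had 18, the last 2 without S100a9.

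**Figure D5:**
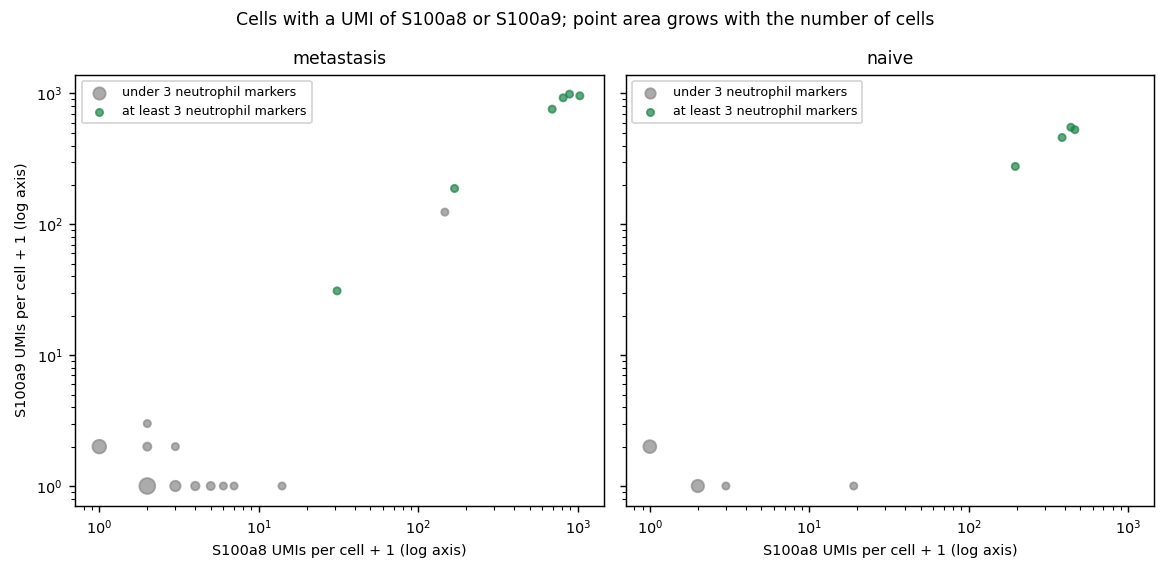
S100a8 against S100a9 UMIs per cell (each plus 1, log axes) for kept cells with a UMI of either gene, metastasis left and naive right; point area grows with the number of cells at that position, and green marks cells with at least 3 neutrophil markers. The green points lie along the diagonal from 30 UMIs upward, and nearly all grey points lie at the lower left.

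These cells had fallen into several classes and made all 6 differences of S100a8 and S100a9 between libraries. In ependymal-like cells 1 metastasis cell held 810 of 817 S100a8 UMIs and 926 of 937 S100a9 UMIs, and 1 naive cell held 436 of 446 and 551 of 564. The log2 ratios of the class, 1.55 (1.38 to 1.72) and 1.41 (1.26 to 1.56), the only 2 of its 10 members beyond 2-fold, beside 3.7% of all genes higher and 1.24% lower, rest on 1 cell in each library. In olfactory ensheathing-like cells 1 naive cell held 462 of 465 S100a8 UMIs and 528 of 531 S100a9 UMIs, against 1 and 2 UMIs in metastasis, with log2 ratios of -8.36 (-13.67 to -5.88) and -7.56 (-10.61 to -5.70); none of the 10 members was higher and these 2 were lower, beside 2.59% and 1.26% of all genes. In oligodendrocyte-like cells 1 metastasis cell held 30 of 47 S100a8 and 30 of 46 S100a9 UMIs, with 14 and 19 UMIs in naive cells, and the log2 ratios of 1.88 (0.99 to 2.85) and 1.40 (0.60 to 2.26) were the 2 beyond 2-fold among 10 members, beside 4.92% higher and 1.26% lower. Without cells of at least 10 UMIs of both genes together, ependymal-like cells had 7 and 10 S100a8 UMIs, olfactory ensheathing-like cells 1 and 3, and oligodendrocyte-like cells 17 and 14.

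In macrophage/monocyte-like cells S100a8 was found without S100a9. Macrophage/monocyte-like cells of the metastasis library had 142 S100a8 UMIs and 9 S100a9 UMIs, a ratio of 15.8, against 1.37 in free RNA of that library. S100a8 without S100a9 was seen in 86 of the 1314 cells, S100a9 without S100a8 in 5 and both in 4, so the UMIs were spread over many cells. Sub-cluster 2, unnamed and led by Spp1 and Gpnmb, held 363 metastasis and 3 naive cells and 83 of those S100a8 UMIs (58.5%), in 51 cells, with 2 UMIs of S100a9. Sub-cluster 5 also exceeded free RNA in S100a8, at 14.4 CPM. Sub-cluster 8 had 17.05 CPM, but 1 cell held 13 of its 18 UMIs, and without it the level was 4.78 CPM, under free RNA. No cell of sub-cluster 2 held more than 6. The S100a8 level of sub-cluster 2 was 41.5 CPM (33.03 to 51.4), above the 7.43 CPM of free RNA, and the S100a9 level was 0.999 CPM (0.121 to 3.61), below the 5.41 CPM of free RNA. After thinning to 1000 UMIs per cell, 1.45% of the macrophage/monocyte-like cells had an S100a8 UMI (6.85% unthinned, median of 5191.5 UMIs), against 0.169% of metastasis oligodendrocyte-like cells (0.338% unthinned, median of 2742.5 UMIs). Melanoma-like cells of the same library had 20 S100a8 and 14 S100a9 UMIs, a ratio of 1.43 (median of 29834 UMIs per cell). The naive library had 28 macrophage/monocyte-like cells and no S100a8 or S100a9 UMI in them, which does not bear on the level in naive macrophages beyond an upper interval bound of 44.5 CPM.

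Melanoma-like cells of the metastasis library had little S100a6 (10.1 CPM (8.81 to 11.6), against 451 CPM in free RNA) and little S100a4 (20 UMIs among 694 cells, 0.951 CPM (0.581 to 1.47)). S100a1 was 311 CPM (304 to 319), S100a10 124 CPM (119 to 129) and S100a11 64.5 CPM (61.2 to 68.1), all below free RNA. The low S100a6 level leaves room for only a small part of free RNA in these cells. A level below free RNA therefore does not show that they made none of these genes. UMIs of S100a10 and Anxa2 occurred together in 538 of 694 cells, unthinned, and in 18 after thinning.

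Genes whose levels over the 24 combinations of class and library were most like a member's, by Pearson's correlation of log levels, were named by a rule of the 3 highest. The points share libraries and free RNA, and the cells of a class share their depth, so the values are a description. S100a11 was most like Anxa2 (0.94), Ahnak (0.88) and Tagln2 (0.88), and S100a10 had Anxa2 among its 3 (0.82). The high S100a8 and S100a9 points, ependymal-like in both libraries and naive olfactory ensheathing-like, each rest on 1 cell with neutrophil markers, so the likeness of these members reflects a few cells. S100a8 went with Ifitm6 (0.94), Wfdc21 (0.93) and Ngp (0.84), and S100a9 with Wfdc21 (0.95), Ifitm6 (0.94) and S100a3 (0.87). S100a4 went with Fcho1 (0.93), Ptpn22 (0.92) and Trac (0.92), S100a16 with Sema6a (0.93), and S100b with Ccdc13 (0.88). The leading genes were lower in likeness for S100a13 (Hdac7, 0.82) and S100a6 (Glipr2, 0.79), and S100a1 was most like Chpt1 (0.89).

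The other S100 family genes were sparse. In kept cells S100a2 had 162 UMIs in metastasis and 70 in naive cells, S100a3 had 79 and 156, S100a5 had 87 and 73 and S100a7a had 18 and 30. S100a14, S100g and S100z had at most 16 UMIs in a library and S100a7l2 had none. S100pbp, which encodes an S100-binding protein and not a family member, had 1128 and 1145 UMIs.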

How the data were processed

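Per the labels' protocols, cells were captured with 10x 3' v3 chemistry; per the submitters' processing notes, reads were processed with STARsolo on GRCm38. The deposited matrices hold unfiltered UMI counts per gene and barcode, made by the authors. The members and gene lists were chosen with earlier results of these data known. Barcodes needed 1000 or more UMIs, 500 or more genes and no more than 20% mitochondrial UMIs, and doublets were removed with Scrublet (expected rate 0.06) at the automatic threshold of the naive library, 0.203, in both libraries, since the automatic threshold of the metastasis library, 0.710, marked 0 cells; this was chosen after seeing the data. With scanpy 1.11.5, counts scaled to 10000 per cell were log-transformed, and 2000 variable genes without S100 genes, 30 components, 15 neighbours and Leiden resolution 1 gave the clusters. Clusters were named from 19 marker lists, with thresholds set after the clusters had been seen (at least 3 markers 2-fold higher, median log2 of at least 1). Counts were summed per class and library and given as CPM. Poisson, Clopper-Pearson and conditional binomial intervals are exact. A difference of 2-fold with at least 20 UMIs is a rule of size, and a ratio against 0 would use a floor of 3 UMIs. Likeness used log2(CPM + 10) of genes with at least 100 UMIs. Named genes are the members, their listed partners and the 3 genes most alike. The scripts were tested on simulated data.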

Additional observations from a re-analysis of the deposited data

How the results depend on the processing

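Of 1069 recomputed values, 938 kept within their counting error or 1.5 times the count, 123 moved further and 8 changed direction. The 15 higher and 9 lower differences became 8 higher among 75 with at least 2000 UMIs per cell, 16 lower among 102 with doublets kept, and 5 lower among 66 (16 higher) with free RNA subtracted. In that setting 23 of the 89 combinations had no informative ratio because 1 or both libraries were at or under the floor, and 16 were bounds. Some estimated fractions would bring in more RNA of a member than the class held, as for S100b in choroid plexus epithelium-like cells. Counts of that setting therefore include combinations from which too much was subtracted. Over all settings the counts ran from 8 to 18 higher and from 5 to 16 lower. With at least 2000 UMIs, S100a8 in ependymal-like cells had a log2 ratio of -1.27 and S100a9 in oligodendrocyte-like cells -0.017. S100a4 in astrocyte-like cells had 2.15 at resolution 2 and 0.48 where each cell was named from the marker UMIs it held itself, a setting in which S100a8 in oligodendrocyte-like cells had -0.037. As a mean over cells, S100a9 in ependymal-like cells had -0.032 and S100a4 in mural-like cells 0.51. Without cells that have 3 neutrophil markers, an alternative chosen after seeing the data, S100a9 in oligodendrocyte-like cells had -0.12 and the counts were 11 higher and 7 lower among 86. Apart from the loss of combinations with free RNA subtracted, the cause was not tested. Levels above free RNA, by the lower end of the interval, numbered 61 of 240, and 68 with free RNA of 10 to 100 UMIs. No paired analysis was possible because each group had 1 library. S100a8 and S100a9 could be compared in 3 of 11 classes and S100a4 in 7, and without replicate libraries no spread between animals could be set against any difference.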
